A study of Mus musculus with 6 samples.

Results

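The ADAMTS proteases were described in bulk RNA of mouse embryonic fibroblasts (MEFs), sequenced as 6 libraries. The 10 genes Adamts1, Adamts2, Adamts4, Adamts5, Adamts6, Adamts7, Adamts9, Adamts10, Adamts12 and Adamts15 were chosen by name, by matching the gene identifiers of the table to the GENCODE annotation, and they are 10 of the 56953 genes in the table. The rule names the genes and uses no measured value, although it was written with earlier results of these data known. Of the 10, 9 passed a filter that asked for 10 or more normalized counts in 3 or more libraries, and Adamts15 did not. All 9 had at least 10 normalized counts in each of the 6 libraries, so none entered the test through 1 line alone.

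The libraries compared 2 lines of MEFs grown in the same medium with serum and antibiotics, 3 libraries of wild-type (WT) cells and 3 of cells labelled GαqKO, which the study describes as a Gαq/11 knockout line. The study states 3 biological replicates per genotype. Its methods name 1 WT and 1 knockout line, so an effect of the genotype and any other difference between the lines cannot be told apart. The transcript of Gnaq, the gene of Gαq, was not lower but slightly higher in the libraries labelled GαqKO. It had 1926 ± 36.0 normalized counts against 1691 ± 48.5 in WT (SD, n = 3 each, log2 fold change 0.19, adjusted p = 0.00212 from limma). The transcript of Gna11, the gene of Gα11, was at 452 ± 28.7 against 2148 ± 29.0. The study reports loss of Gαq protein in the GαqKO cells by Western blot and immunofluorescence, and protein was not measured here. All directions are those of the libraries labelled GαqKO against WT. Values are given as normalized counts, meaning the reads counted on a gene divided by a size factor of the library. They summed to between 11392429 and 11483486 per library, and the reads recovered from 5 of the libraries numbered 9853000 to 12229175.

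ADAMTS proteins (a disintegrin and metalloproteinase with thrombospondin motifs) are secreted zinc proteases of the extracellular matrix. They are made as precursors with a propeptide, which furin-like convertases remove from many of them, and they bind matrix through thrombospondin repeats. The family falls into classes by substrate. Aggrecanases, also called hyalectanases, cut the core proteins of aggrecan, versican and related proteoglycans. Procollagen N-peptidases remove the N-terminal propeptide of fibrillar procollagens before fibrils form, further members cut cartilage oligomeric matrix protein (COMP), and others act on the fibrillin microfibrils of connective tissue.

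The coding sequences of the active site are shown because they code for the zinc-binding site of these proteases and differ between the genes. Each runs 5′ to 3′ on the coding strand and was read from the GRCm39 genome with GENCODE release 39. Capitals mark the codons of the 3 histidines that hold the catalytic zinc and of the glutamate next to the first of them. Adamts3 and Adamts14 are shown with Adamts2 because the 3 make up the procollagen N-peptidases.
Adamts1: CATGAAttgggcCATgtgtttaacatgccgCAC
Adamts4: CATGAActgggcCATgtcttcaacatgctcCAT
Adamts5: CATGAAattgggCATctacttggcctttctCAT
Adamts9: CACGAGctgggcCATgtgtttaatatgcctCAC
Adamts15: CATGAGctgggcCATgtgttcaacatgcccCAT
Adamts2: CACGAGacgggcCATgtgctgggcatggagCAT
Adamts3: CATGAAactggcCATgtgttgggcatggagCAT
Adamts14: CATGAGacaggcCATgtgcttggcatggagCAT
Adamts7: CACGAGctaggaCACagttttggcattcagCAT
Adamts12: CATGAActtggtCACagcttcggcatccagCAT
Adamts6: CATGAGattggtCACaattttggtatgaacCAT
Adamts10: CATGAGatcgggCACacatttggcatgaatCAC

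Each of these 12 sites is split by an intron. The exon pairs were 3 and 4 in Adamts1 and Adamts4, 2 and 3 in Adamts5 and Adamts15, 8 and 9 in Adamts9 and Adamts3, 7 and 8 in Adamts2, Adamts14, Adamts7 and Adamts12, and 9 and 10 in Adamts6 and Adamts10. The eighth codon separates the sequences, since it codes for asparagine in Adamts1, Adamts4, Adamts9 and Adamts15 and for glycine in the other 8, Adamts5 included. Among the 10 members, Adamts4 and Adamts15 were the closest pair, with 30 of 33 bases identical (90.9%), and Adamts9 and Adamts12 the most distant, with 17 of 33 (51.5%). Within the smaller classes, Adamts7 and Adamts12 shared 26 bases (78.8%), as did Adamts6 and Adamts10.

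Of the 9 ADAMTS genes tested, limma on log2 of the normalized count plus 1 called 3 higher and 4 lower in the GαqKO libraries, with the adjusted p set at 0.05, and 2 did not pass. Among all 14096 genes tested, 31.8% were higher and 34.1% lower by the same rule, so the share of ADAMTS genes called was close to the background of these lines. With a log2 fold change above 1 in size required too, 3 of the 9 were higher and 3 lower, beside 10.2% and 10.5% of all genes tested. The same 7 genes had groups that did not overlap, 3 higher and 4 lower in each library labelled GαqKO, against 33.8% and 35.8% of all genes tested. The median log2 fold change of the 9 was -0.15 and the median size was 1.58, against -0.01 and 0.39 over all genes tested. Fold changes on the log2 scale with 1 added understate the change of genes with low values. In bulk RNA, fewer cells with a transcript and less transcript per cell cannot be told apart.

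**Figure D1:**
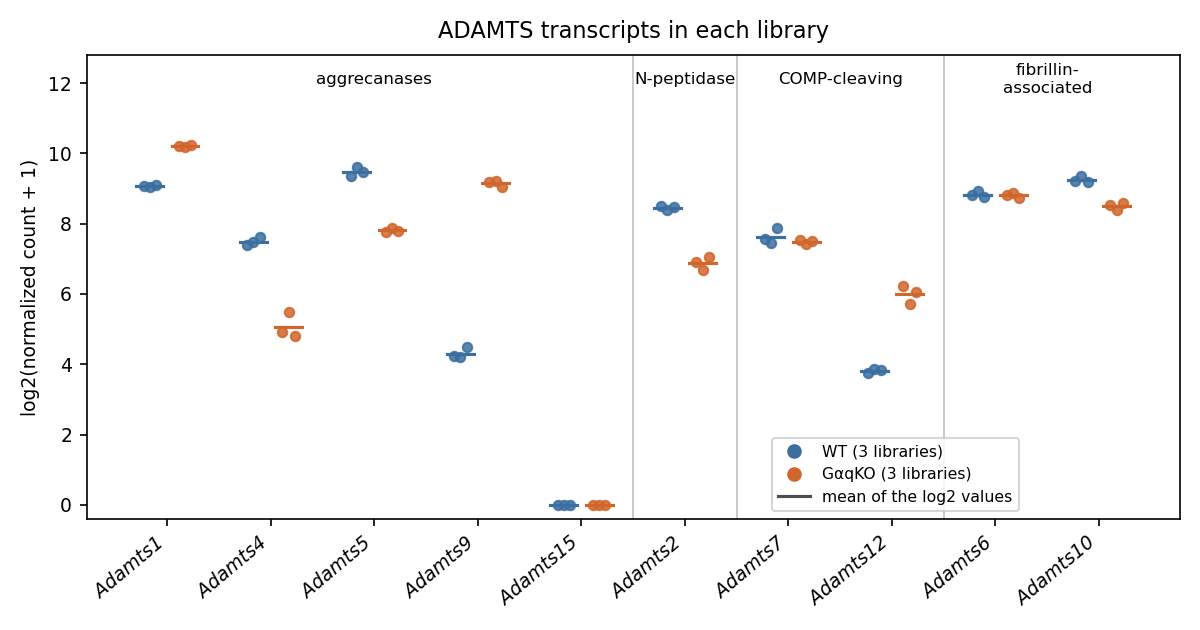
Log2 of the normalized count plus 1 (vertical axis) of the 10 ADAMTS genes in each library, grouped by substrate class, with WT in blue and GαqKO in orange, 3 points each, and bars at the mean of the log2 values. Adamts1, Adamts9 and Adamts12 sit higher in the libraries labelled GαqKO, Adamts4, Adamts5, Adamts2 and Adamts10 lower, Adamts7 and Adamts6 overlap, and Adamts15 lies at 0.

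The aggrecanases split in both directions. Adamts1 and Adamts9 were higher and Adamts4 and Adamts5 lower in the libraries labelled GαqKO, each by more than a log2 fold change of 1. Adamts15 was not detected.

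Adamts9 had the largest change among the 10. Adamts9 (ENSMUSG00000030022, chromosome 6, 92749680 to 92920520, minus strand) encodes a large versican-cutting protease that binds close to the cell surface. It had 17.8, 17.5 and 21.4 normalized counts in the WT libraries and 580.3, 592 and 524 in those labelled GαqKO. Low in WT, it was among the more abundant members in each library labelled GαqKO. The means were 18.9 ± 2.17 and 565 ± 36.6 normalized counts (SD, n = 3 each), a 30.0-fold difference with a log2 fold change of 4.84 (standard error 0.14, 95% interval 4.53 to 5.14, adjusted p = 3.59e-12 from limma). Exons of Adamts9 lie to 25.1% inside the spans of 3 genes on the opposite strand, and the strand setting of the counting is not given in the sources used here, so reads of those stretches cannot be assigned with certainty.

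Adamts1 (ENSMUSG00000022893, chromosome 16, 85590579 to 85600009, minus strand) encodes a versican and aggrecan protease that is also known to cut nidogen and thrombospondin. Its normalized counts were 542, 524 and 547 in WT and 1189, 1157 and 1201 in the libraries labelled GαqKO. All 3 of the latter stood above all 3 WT values, and the libraries of each line lay within a narrow range. The means of 537 ± 12.2 and 1183 ± 22.7 (SD, n = 3 each) differed by 2.20-fold, with a log2 fold change of 1.14 (standard error 0.053, 95% interval 1.02 to 1.25, adjusted p = 3.7e-10 from limma).

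Adamts5 (ENSMUSG00000022894, chromosome 16, 85653061 to 85698716, minus strand) encodes an aggrecanase known for its part in cartilage loss. It had 658, 778 and 710.5 normalized counts in WT and 215, 236 and 219 in the libraries labelled GαqKO, and the groups lay far apart. The mean was 715 ± 60.3 in WT and 223 ± 11.2 in GαqKO (SD, n = 3 each), 3.21-fold lower, with a log2 fold change of -1.67 (standard error 0.081, 95% interval -1.85 to -1.50, adjusted p = 5.08e-10 from limma). Adamts5 and Adamts1 are neighbours on the same strand of chromosome 16, with 53.1 kb and 0 protein-coding genes between them. These neighbours changed in opposite directions, and neither has exons inside the span of another gene.

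Adamts4 (ENSMUSG00000006403, chromosome 1, 171077986 to 171089841, plus strand), the other aggrecanase best known from cartilage, was at 167, 177 and 194 normalized counts in WT and 29.1, 43.9 and 27.2 in the libraries labelled GαqKO. The lowest WT library was still well above the highest one labelled GαqKO. The means were 179 ± 13.9 and 33.4 ± 9.17 normalized counts (SD, n = 3 each), 5.37-fold lower, with a log2 fold change of -2.42 (standard error 0.19, 95% interval -2.84 to -2.002, adjusted p = 9.33e-08 from limma).

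Adamts15 (ENSMUSG00000033453, chromosome 9, 30810451 to 30833863, minus strand), a versican-cutting member, was listed at 0 in all 6 libraries, which allows up to 3 normalized counts per library for counting error alone. Its neighbour Adamts8, a further aggrecanase that starts 19.9 kb away on the other strand, was listed at 0 in 4 libraries and at no more than 1.01 normalized counts in the other 2. Of the exon bases of Adamts8, 65.4% lie inside the span of a gene on the opposite strand, so its values are given only as listed.

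Levels of different genes were compared per kb of exon, counting each exon base of a gene once. Summed over the aggrecanases, the level was 193 ± 5.59 normalized counts per kb in WT and 279 ± 0.717 in the libraries labelled GαqKO (SD, n = 3 each), with ranges of 186 to 196 and 278 to 280. The makeup of this sum differed between the lines. Adamts1 made up 51.0% ± 2.10 of the sum in WT and 77.4% ± 1.55 in GαqKO. Adamts5 went from 34.0% ± 2.19 to 7.32% ± 0.370 and Adamts4 from 14.4% ± 0.799 to 1.86% ± 0.509. The share of Adamts9 was 0.648% ± 0.0657 in WT and 13.4% ± 0.843 in GαqKO (SD, n = 3 each for all shares). Adamts4 and Adamts5 together were close in level to Adamts1 in WT, and Adamts1 with Adamts9 made up nearly all of the sum in the libraries labelled GαqKO. No share overlapped between the lines. The shares follow from the same values as the tests above and were not tested again.

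**Figure D2:**
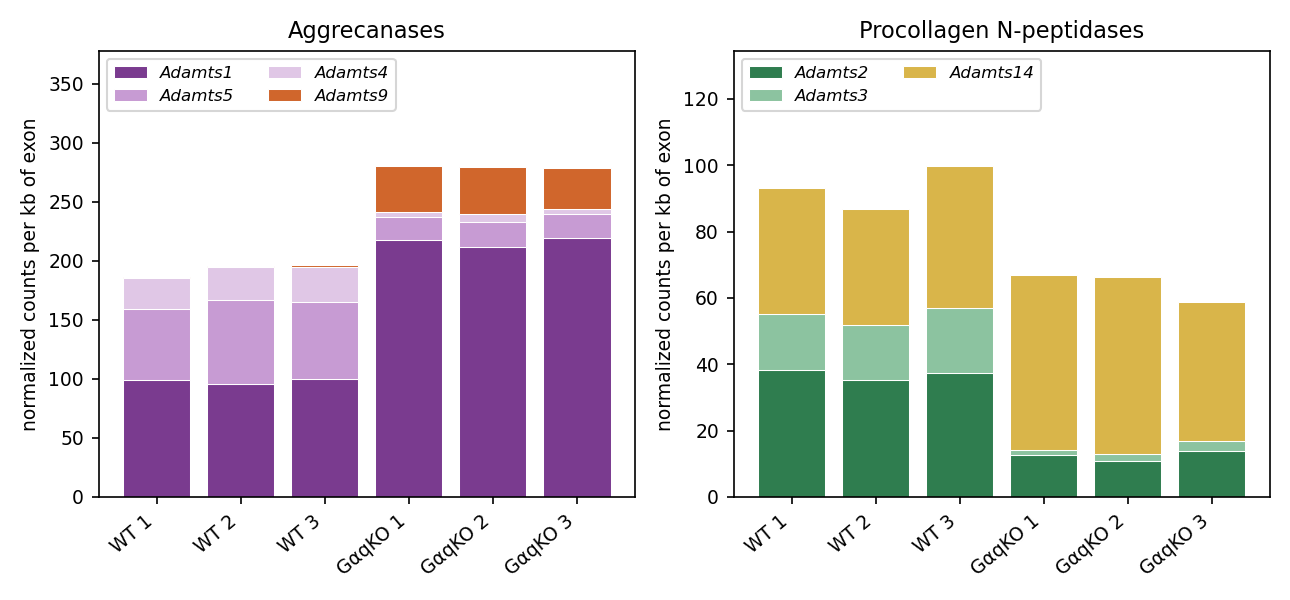
Normalized counts per kb of exon in each of the 6 libraries, stacked by gene, for the aggrecanases (left, Adamts15 at 0) and the procollagen N-peptidases (right). The aggrecanase sum is higher in the 3 libraries labelled GαqKO (278 to 280 against 186 to 196) and consists mostly of Adamts1 with Adamts9, while the N-peptidase sum is lower (58.6 to 67.0 against 86.7 to 99.6) and consists mostly of Adamts14.

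The procollagen N-peptidase among the 10, Adamts2, was lower in the libraries labelled GαqKO. Adamts2 (ENSMUSG00000036545, chromosome 11, 50492787 to 50698400, plus strand) trims the procollagens of collagen I, II and III, and its loss is known to leave skin fragile. It had 362, 333 and 354 normalized counts in WT and 118, 102 and 132 in GαqKO. The lowest WT value lay far above the highest value of the libraries labelled GαqKO. The means were 349.9 ± 15.0 and 117 ± 15.1 (SD, n = 3 each), 2.98-fold lower, with a log2 fold change of -1.58 (standard error 0.11, 95% interval -1.82 to -1.33, adjusted p = 3.05e-08 from limma).

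The other members of this class moved in both directions. Adamts3, known for trimming procollagen II and for activating the lymphatic growth factor VEGF-C, had 183, 179.7 and 214 normalized counts in WT and 17.8, 24.3 and 33.2 in GαqKO. Its mean was 7.65-fold lower (log2 fold change -2.92, standard error 0.21, adjusted p = 3.77e-08 from limma), which is a larger change than that of Adamts2. Adamts14, the remaining N-peptidase, had 222, 204 and 248 normalized counts in WT and 308, 311 and 243 in GαqKO, and these groups overlapped. The log2 fold change of Adamts14 was 0.35 (standard error 0.12, adjusted p = 0.0168 from limma). That call was lost without WT replicate 2 (adjusted p = 0.0813 from limma), without GαqKO replicate 1 (0.0762) or replicate 2 (0.0760), and with no trend in the prior spread (0.0600).

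Summed per kb of exon, the 3 N-peptidases were at 93.2 ± 6.48 normalized counts in WT and 64.0 ± 4.65 in GαqKO (SD, n = 3 each). In WT, Adamts14 and Adamts2 made up similar shares of this sum, 41.4% ± 1.25 and 39.8% ± 1.91, with Adamts3 at 18.9% ± 0.852. In the libraries labelled GαqKO, Adamts14 made up 76.8% ± 5.05, Adamts2 19.6% ± 3.86 and Adamts3 3.66% ± 1.40 (SD, n = 3 each). Adamts14 was thus the main N-peptidase transcript of those libraries by this measure.

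Of the COMP-cutting pair, Adamts12 was higher in the libraries labelled GαqKO and Adamts7 did not pass the test. Adamts12 (ENSMUSG00000047497, chromosome 15, 11064876 to 11349318, plus strand) was low in both lines, with 12.5, 13.6 and 13.2 normalized counts in WT and 74.2, 52.0 and 65.5 in GαqKO. The groups did not overlap. The means of 13.1 ± 0.543 and 63.9 ± 11.2 (SD, n = 3 each) differed by 4.87-fold, with a log2 fold change of 2.19 (standard error 0.24, 95% interval 1.66 to 2.71, adjusted p = 2.92e-06 from limma).

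Adamts7 (ENSMUSG00000032363, chromosome 9, 90045062 to 90090124, plus strand), known from studies of vascular smooth muscle and coronary disease, had 190.0, 175 and 232 normalized counts in WT and 184, 170.0 and 179 in GαqKO. The groups overlapped, and WT replicate 3 was the highest of the 6. The means were 199 ± 29.6 and 178 ± 7.16 (SD, n = 3 each). The log2 fold change of -0.15 had a 95% interval of -0.41 to 0.11 (adjusted p = 0.279 from limma), so a change of more than about 0.41 in size on the log2 scale lay outside the interval. The transcript of COMP itself was under the filter, with means of 5.74 normalized counts in WT and 1.80 in GαqKO. The pair that shares 78.8% of the active site bases printed above was thus called for Adamts12 and not for Adamts7, and the difference between the 2 changes was not tested.

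Of the fibrillin-associated pair, Adamts10 was lower in the libraries labelled GαqKO and Adamts6 did not pass the test. Adamts10 (ENSMUSG00000024299, chromosome 17, 33742987 to 33772758, plus strand), which promotes the assembly of fibrillin microfibrils and is mutated in Weill-Marchesani syndrome, had 593, 655 and 581 normalized counts in WT and 369, 336 and 385 in GαqKO. Each library labelled GαqKO was below each WT library. The means were 609.7 ± 39.5 and 363 ± 24.6 (SD, n = 3 each), 1.68-fold lower, with a log2 fold change of -0.75 (standard error 0.076, 95% interval -0.91 to -0.58, adjusted p = 1.19e-06 from limma). Adamts10 was the one called member whose change did not exceed 1 on the log2 scale.

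Adamts6 (ENSMUSG00000046169, chromosome 13, 104424343 to 104633203, plus strand), its closest relative, had 446, 487 and 429 normalized counts in WT and 449.8, 468 and 421 in GαqKO. The values interleaved. The means were 454 ± 29.9 and 446 ± 23.9 (SD, n = 3 each), and the log2 fold change of -0.02 had a 95% interval of -0.18 to 0.14 (adjusted p = 0.802 from limma).

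The order of the members per kb of exon differed between the lines. Within a line the order depends on the exon length used, which takes in all annotated isoforms. In WT, Adamts10 had more normalized counts than Adamts1 (609.7 against 537), over 13125 bases of exon against 5473. The spreads below cover replicates only. In WT, Adamts1 stood first at 98.2 ± 2.22 normalized counts per kb, followed by Adamts5 at 65.5 ± 5.52 and Adamts6 at 58.2 ± 3.83, whose ranges overlapped. Adamts10 came next at 46.5 ± 3.01, and then Adamts2 (37.0 ± 1.59), Adamts7 (31.4 ± 4.67) and Adamts4 (27.8 ± 2.15), of which neighbours overlapped. Adamts9 and Adamts12 were near the bottom, at 1.25 ± 0.144 and 1.20 ± 0.0498, and did not differ beyond their spread (SD, n = 3 each for all levels). In the libraries labelled GαqKO, Adamts1 was again first, at 216 ± 4.14 per kb, with Adamts6 next at 57.2 ± 3.06. Adamts9 held rank 3 there at 37.5 ± 2.42, after rank 8 in WT. Adamts7 (28.0 ± 1.13) and Adamts10 (27.7 ± 1.87) overlapped, Adamts5 held rank 6 at 20.4 ± 1.02 after rank 2 in WT, Adamts2 followed at 12.4 ± 1.60, and Adamts12 (5.85 ± 1.02) and Adamts4 (5.18 ± 1.42) overlapped at the lower end.

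**Figure D3:**
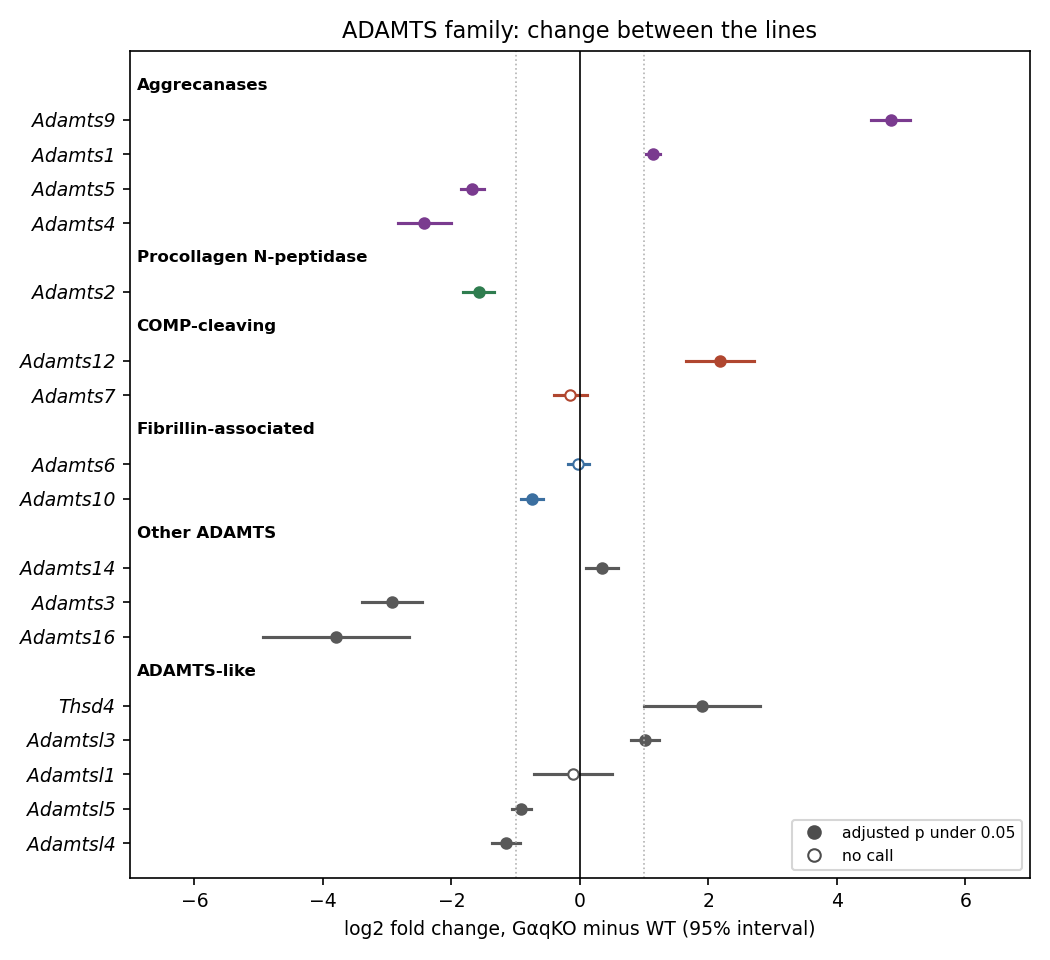
Log2 fold change of GαqKO minus WT (horizontal axis) with its 95% interval for the ADAMTS and ADAMTS-like genes tested, grouped by class, with filled points for an adjusted p under 0.05 and open points for no call, and dotted lines at -1 and 1. The aggrecanases lie on both sides of 0, from -2.42 for Adamts4 to 4.84 for Adamts9, and the intervals of Adamts7, Adamts6 and Adamtsl1 include 0.

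Of the 9 further ADAMTS genes in the table, 3 passed the filter, namely Adamts3, Adamts14 and Adamts16, and Adamts8, Adamts13, Adamts17, Adamts18, Adamts19 and Adamts20 were not tested. Adamts16, which is known to cut fibronectin, had 26.1, 20.4 and 42.7 normalized counts in WT and 1.88, 2.31 and 0 in GαqKO, at least 9.92-fold lower against a floor of 3 normalized counts per library (adjusted p = 2.3e-05 from limma). The values in GαqKO were at or under the floor, and 25.6% of its exon bases lie inside the spans of other genes on the opposite strand.

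The ADAMTS-like proteins share the thrombospondin repeats but have no protease domain, and several bind fibrillin. Of the 7, 5 were tested, with 2 higher and 2 lower, near the 31.8% and 34.1% of all genes tested, while Adamtsl2 and Papln were under the filter. Adamtsl3 rose from 168 ± 6.78 to 339.8 ± 33.03 normalized counts (log2 fold change 1.01, adjusted p = 8.06e-07 from limma) and Thsd4, a fibrillin-binding protein that is low here, from 6.14 ± 3.24 to 24.4 ± 6.76 (1.90, adjusted p = 0.00123). Adamtsl4, whose loss dislocates the lens, fell from 312 ± 12.9 to 141 ± 10.5 (-1.15, adjusted p = 2.41e-07 from limma) and Adamtsl5 from 711 ± 35.3 to 377 ± 16.96 (-0.91, adjusted p = 4.46e-08; SD, n = 3 each). Adamtsl1 was at 27.7 ± 6.12 and 25.7 ± 6.27 and did not pass (adjusted p = 0.753 from limma). Adamts16 and Thsd4 passed the filter through 1 line alone. Over these 16 ADAMTS and ADAMTS-like genes together, 8 were tested, of which 3 were higher and 4 lower, beside 31.8% and 34.1% of all genes tested. Past the fold threshold, 2 were higher and 3 lower, beside 10.2% and 10.5% of all genes tested.

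The substrates were taken as a list of 19 genes. Of the 14 tested, 3 were higher (2 past the fold threshold) and 10 lower (5 past it), beside 31.8% (10.2%) and 34.1% (10.5%) of all genes tested, and the median log2 fold change was -0.45. Of the 4 hyalectans, Vcan, the gene of versican, was the one that passed the filter. Vcan had 2577, 2563 and 3179.8 normalized counts in WT and 7152, 6240.2 and 5653 in GαqKO, and the groups did not overlap. The means of 2773 ± 352 and 6348 ± 755 (SD, n = 3 each) differed by 2.29-fold (log2 fold change 1.20, standard error 0.087, adjusted p = 3.51e-08 from limma). Versican thus rose beside Adamts1 and Adamts9 and went the opposite way to Adamts4 and Adamts5. Acan, Ncan and Bcan, the genes of aggrecan, neurocan and brevican, had no more than 3.02 normalized counts in any library, so the transcript of the substrate that gave the aggrecanases their name was at or next to the floor.

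The transcripts of the procollagen chains on which the N-peptidases act were lower. All 5 tested were lower in the libraries labelled GαqKO, 3 of them past the fold threshold, beside 34.1% and 10.5% of all genes tested, and Col2a1 was under the filter. Col1a1 fell from 16671 ± 1168 to 5774 ± 272 normalized counts (log2 fold change -1.53, adjusted p = 2.11e-11 from limma), Col5a1 from 5701 ± 348 to 1951 ± 89.9 (-1.55, adjusted p = 1.26e-11) and Col5a2 from 6710.4 ± 358 to 2089 ± 61.7 (-1.68, adjusted p = 2.41e-12; SD, n = 3 each). The values of these 3 chains lay near the log2 fold change of -1.58 of Adamts2. They did not lie near those of Adamts3 (-2.92) and Adamts14 (0.35), and a link between chains and enzymes was not tested. Col1a2 and Col3a1 fell less, by 0.36 and 0.18 on the log2 scale (adjusted p = 2.42e-06 and 0.00388 from limma), and the call of Col3a1 was lost in DESeq2 on 5 libraries (adjusted p = 0.0664). These are RNA values. By immunostaining, the study reports the opposite direction for the deposited collagen I matrix, prominent with GαqKO cells and nearly absent with WT.

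Among the other substrates, Fbn2, the gene of fibrillin-2, had 7.31, 0 and 2.04 normalized counts in WT and 1816, 1909 and 1676 in GαqKO (log2 fold change 9.26, standard error 0.51, adjusted p = 1.99e-09 from limma), and it passed the filter through the latter alone. With WT near the floor the size of this value is uncertain, at 10.01 without WT replicate 1, 8.48 without WT replicate 2 and 7.90 with a pseudocount of 5. Fbn1, the gene of fibrillin-1, fell from 246 ± 56.3 to 167 ± 7.10 normalized counts (-0.53, adjusted p = 0.00458 from limma). Thbs1, the gene of thrombospondin-1 and a known target of Adamts1, fell 6.94-fold, from 8639 ± 346 to 1244 ± 44.9 normalized counts (-2.79, adjusted p = 1.54e-14 from limma). Lox, which crosslinks collagen, fell from 8395 ± 166 to 2598 ± 124 (-1.69, adjusted p = 1.14e-12 from limma). Nid1, the gene of the basement membrane protein nidogen-1, rose from 2701 ± 118 to 5338 ± 116 (0.98, adjusted p = 2.32e-10 from limma; SD, n = 3 each). Fn1 and Sdc4 were lower by 0.73 and 0.27 on the log2 scale, and Bgn, the gene of biglycan, did not pass (log2 fold change 0.02, adjusted p = 0.778 from limma).

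**Figure D4:**
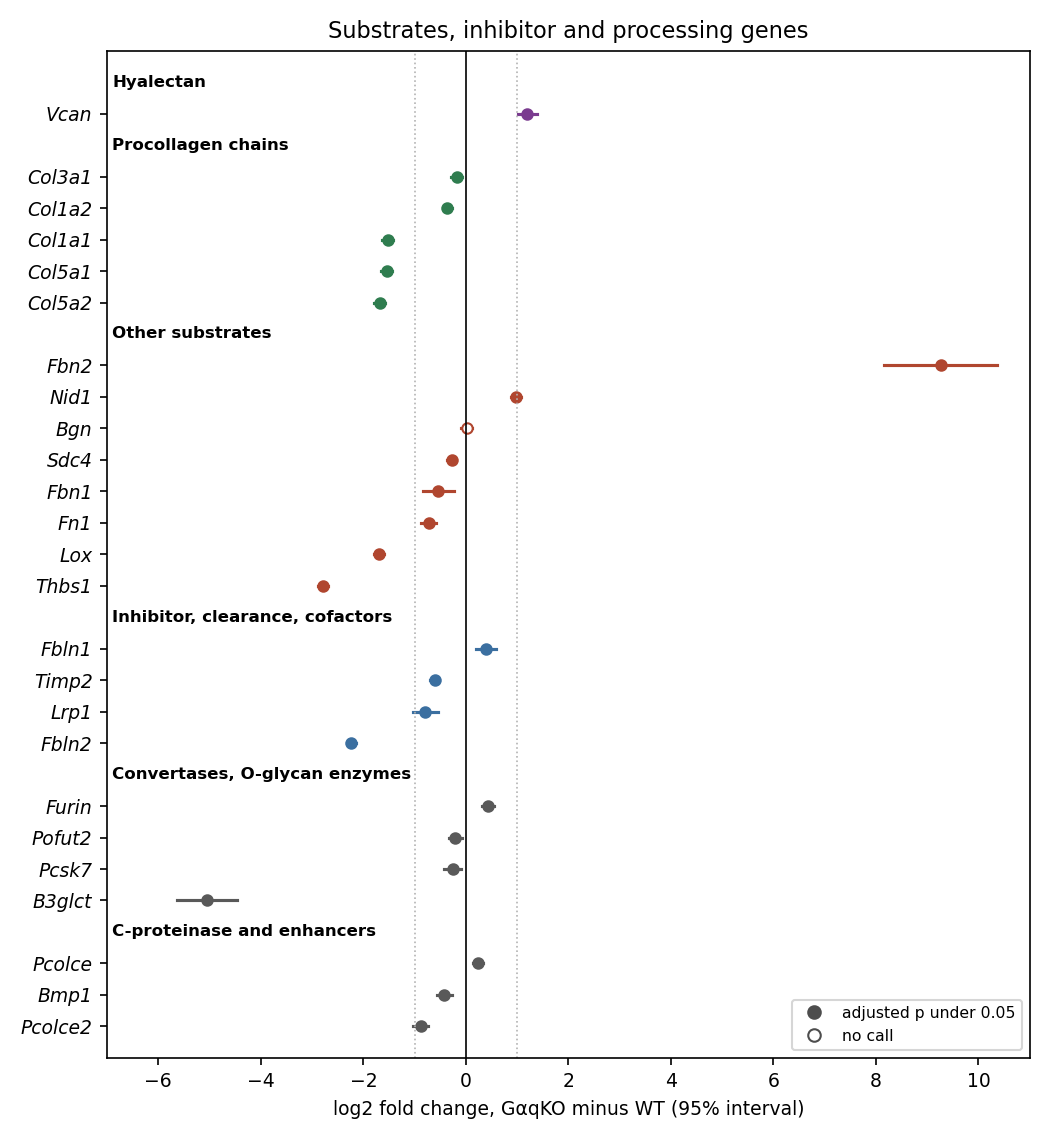
Log2 fold change of GαqKO minus WT (horizontal axis) with its 95% interval for the tested substrates, inhibitors, cofactors and processing genes of the ADAMTS proteases, with filled points for an adjusted p under 0.05, open points for no call and dotted lines at -1 and 1. The procollagen chains lie at or below -0.18, Vcan at 1.20 and Fbn2 at 9.26 lie above 0, and B3glct at -5.05 is the lowest.

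The genes that hold ADAMTS proteins in check, clear them or help to make them were a list of 19, of which 11 were tested, 3 higher and 8 lower, 2 of the latter past the fold threshold. Of all genes tested, 31.8% were higher, 34.1% lower and 10.5% lower past the fold threshold. The largest of these changes was that of B3glct, the enzyme that adds glucose to the O-fucose of thrombospondin repeats, a step that many ADAMTS proteins need to leave the cell. B3glct had 169, 184 and 197 normalized counts in WT and 6.57, 4.62 and 3.02 in GαqKO. The libraries labelled GαqKO were near the floor, so that B3glct passed the filter through WT alone, with a mean of 4.74 ± 1.78 against 183 ± 14.2 (SD, n = 3 each), 38.7-fold lower (log2 fold change -5.05, standard error 0.27, adjusted p = 1.41e-09 from limma). The enzyme of the preceding step, Pofut2, was at 1098 ± 56.2 and 953 ± 62.8 (-0.20, adjusted p = 0.00954 from limma), a call lost in DESeq2 on 5 libraries, without GαqKO replicate 1 and in limma with no prior trend.

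Of the cofactors, Fbln2, a fibulin that binds versican, fell 4.70-fold from 10942 ± 168 to 2329 ± 74.1 normalized counts (log2 fold change -2.23, adjusted p = 3.44e-14 from limma). Fbln1, known to enhance the cutting of aggrecan by ADAMTS1, went from 219 ± 12.6 to 288 ± 15.6 (0.40, adjusted p = 0.00182; SD, n = 3 each), with an adjusted p of 0.0579 in DESeq2 on 5 libraries. Lrp1, the endocytic receptor that clears ADAMTS4 and ADAMTS5, had 1972, 1971 and 2908 normalized counts in WT and 1298, 1338 and 1252 in GαqKO (-0.79, adjusted p = 2.88e-05 from limma).

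Of the inhibitors, Timp2 fell from 11288 ± 236 to 7405 ± 228 normalized counts (log2 fold change -0.61, adjusted p = 1.38e-08 from limma). Timp3, the main tissue inhibitor of the aggrecanases, was listed at 0 in all 6 libraries, as were Timp1 and Timp4. All exon bases of these 3 (100.0%) lie inside the spans of the synapsin genes Syn1, Syn2 and Syn3 on the other strand, so they are given only as listed and no level is read from these zeros. A2m was at or under the floor.

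Of the convertases that remove the propeptides, Furin rose from 1105 ± 44.9 to 1495 ± 78.6 normalized counts (0.43, adjusted p = 8.55e-06 from limma) and Pcsk7 went from 429 ± 23.3 to 359 ± 26.9 (-0.26, adjusted p = 0.0117), while Pcsk5 and Pcsk6 were under the filter. The call of Pcsk7 was lost in DESeq2 on 5 libraries (adjusted p = 0.108) and without GαqKO replicate 2 (0.0580). At the other end of procollagen, the C-proteinase Bmp1 fell by 0.43 on the log2 scale and its enhancer Pcolce2 by 0.88, and the enhancer Pcolce rose by 0.23 (adjusted p = 8.32e-05, 4.67e-08 and 0.00055 from limma). Tll1 and Tll2 were under the filter.

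The cell type label was checked against markers. All 8 fibroblast markers were tested, of which limma called 3 higher and 5 lower in GαqKO, beside 31.8% and 34.1% of all genes tested. Their summed normalized counts were 84198 to 89942 in WT and 60834 to 63969 in GαqKO. Within them, Pdgfra went from 19.6 ± 2.23 to 2319.7 ± 42.0 normalized counts (log2 fold change 6.82), and Thy1 was at no more than 2.09 in any WT library against 59.0 to 76.5 in GαqKO (SD, n = 3 each). Pdgfra was thus low and Thy1 near 0 in WT, whereas the surface marker Pdgfrb was at 892 ± 56.4 in WT and 1046 ± 42.0 in GαqKO. Thy1 passed the filter through the libraries labelled GαqKO alone. Col1a1, Col1a2, Col3a1, Fn1 and Vim were lower, with Vim at 41785 ± 2519 in WT and 33508 ± 729 in GαqKO (SD, n = 3 each). The chondrocyte markers Acan, Col2a1, Matn3 and Col9a1 had no more than 5.83 normalized counts in any library, and the fifth, Sox9, was at 1602 ± 97.3 in WT and 2464 ± 35.5 in GαqKO. All exon bases of Sox9, and of the smooth muscle marker Des, lie inside the span of a gene on the opposite strand, so both are given only as listed. The 4 epithelial markers summed to 255 to 284 in WT and 9.06 to 20.8 in GαqKO, mostly from Cdh1 (238 ± 3.06 against 7.96 ± 2.72). Krt8 and Krt18, which were not tested, had means of 17.3 and 14.5 in WT and no more than 1.88 in any library labelled GαqKO, and Epcam was at no more than 8.09 in any library. The 4 smooth muscle markers summed to 652 to 814 and 267 to 308, mostly from Acta2 (log2 fold change -1.42), with Myh11 and Cnn1 at no more than 8.09 and no call for Des (adjusted p = 0.970 from limma). Leukocyte markers summed to 104 to 115 and 69.5 to 103, with Ptprc at or next to the floor, Cd68 lower by 0.48 on the log2 scale (adjusted p = 0.0296 from limma) and no call for Csf1r (0.307). Endothelial markers summed to 12.6 to 22.4 and 15.0 to 25.4, with no call for Pecam1 (adjusted p = 0.786 from limma). The fibroblast, epithelial, smooth muscle and leukocyte sums were each lower in every library labelled GαqKO than in any WT library. The chondrocyte sum, mostly from Sox9, was higher, at 2435 to 2499 in GαqKO against 1517 to 1708 in WT. The endothelial sums overlapped. The part of these cell types in the ADAMTS values was not tested.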

How the data were processed

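RNA was sequenced from 3 WT and 3 GαqKO MEF libraries, grouped by the genotype labels. Per the labels and the study's methods, the authors selected poly-A RNA, prepared stranded libraries, sequenced 150-base paired ends, aligned them to GRCm39 (Rbowtie2), used featureCounts with GENCODE release 32 to count them on genes, and ran DESeq2 for differential expression. Tool versions and the strand setting of the counting are not given in the sources used here. The values the authors deposited are a signal, namely normalized counts (gene counts divided by 1 size factor per library). GENCODE release 39 of the same build named 56310 of the 56953 gene identifiers (98.9%) and gave coordinates, exon lengths and the sequences printed. Of the genes in the table, 30862 were listed at 0 in all 6 libraries.

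Genes at 10 or more normalized counts in 3 or more libraries were tested with limma (prior variance with a trend, no covariate) after a log2 transform with a pseudocount of 1, and p-values (two-sided) were adjusted by Benjamini-Hochberg over all genes tested. Calls had an adjusted p under 0.05, and changes past the fold threshold a log2 fold change over 1 in size. The floor was 3 normalized counts per library, for counting error only. Division by the value of 1 read gave whole reads for 100.0% of the nonzero values of 5 libraries (tolerance 0.1 read). The reads of GαqKO replicate 3 could not be recovered in this way, so edgeR and DESeq2 were run on the other 5 libraries as alternatives. Libraries of 1 line whose reads were recovered differed by a chi-square of 2.44 to 5.50 per gene, above counting noise. Whether the replicates came from separate cultures is known only from the study's statement of biological replicates.

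The members and the gene lists were chosen with earlier results of these data known. The named genes were all 10 members and, from each list, all genes past both thresholds, with every tested gene of lists with 4 or fewer tested genes. Further genes of the lists are named as fixed members of those lists. Alternatives were TMM scaling, no filter or 10 normalized counts in every library, pseudocounts of 0.5 and 5, a replicate block, no trend in the prior spread, both count tests, limma on the same 5 libraries and each library left out in turn. On simulated data with 100 genes changed by a log2 fold change of 2 and 100 by 1, limma on 6 libraries recovered 100 and 100 among 13984 genes with 4 false calls, edgeR on 5 libraries 100 and 100 among 14241 with 2, and DESeq2 on 5 libraries 100 and 96 among 24762 with 1. The changed genes were all well above the filter and every gene had the same dispersion, so recovery of low genes was not tested. Far fewer genes were changed there than the 9279 called in these libraries. Python 3.11.15, numpy 2.4.6, pandas 2.3.3 and matplotlib 3.10.9 were used with R 4.3.3, limma 3.58.1, edgeR 4.0.16 and DESeq2 1.42.0.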

Additional observations from a re-analysis of the deposited data

How the results depend on the processing

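The counts of ADAMTS genes called, 3 higher and 4 lower with 3 and 3 past the fold threshold, kept their values under all alternatives run, and no member lost or gained a call. The log2 fold change of Adamts6, which was not called, changed sign with edgeR (0.029), DESeq2 (0.0206) and limma on the same 5 libraries (0.0186), and ran from -0.0629 to 0.0287 with each library left out. With each library left out, the log2 fold changes ran from 4.79 to 4.92 for Adamts9, 1.12 to 1.15 for Adamts1, -1.73 to -1.61 for Adamts5, -2.63 to -2.29 for Adamts4, -1.66 to -1.48 for Adamts2, 2.07 to 2.32 for Adamts12, -0.79 to -0.69 for Adamts10 and -0.24 to -0.04 for Adamts7. Among the genes that were not called, Adamtsl1 changed sign with edgeR (0.0468), DESeq2 (0.0284) and limma on 5 libraries (0.016), with a range of -0.29 to 0.0389 with each library left out, and Bgn had a range of -0.0204 to 0.0533.

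Requiring 10 normalized counts in every library left 12054 genes, so fewer could be called: 831 were higher and 765 lower past both thresholds (1432 and 1486 otherwise). Past both thresholds it also left 1 of the further ADAMTS and ADAMTS-like genes higher and 2 lower, 1 substrate higher and 1 processing gene lower. It removes Thsd4, Adamts16, Fbn2 and B3glct. With a pseudocount of 5 the further ADAMTS and ADAMTS-like genes had 1 higher, and with each library left out 1 to 2, with 1 without WT replicate 1, GαqKO replicate 1 or GαqKO replicate 2. Adamtsl3 was near the threshold there, at 0.95 to 1.09. The processing genes had 1 higher past both thresholds with no filter, edgeR and DESeq2, where Pcsk6, otherwise under the filter, was tested.

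Samples with the same replicate number did not deviate together (correlations of deviations -0.045, -0.148 and -0.064), and no sample pair with the same number correlated best, so the replicate numbers were not taken as pairing. With a replicate block, 1421 genes were higher and 1478 lower past both thresholds, 3 ADAMTS genes were higher and 4 lower, and no call of a member changed. Depth limits the low genes most: a value of 0 in a library allows up to 3 normalized counts, and Adamts15 and Adamts8 cannot be compared between the lines.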
